A study of Saccharomyces cerevisiae with 20 samples.

Results

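The question addressed was which yeast transcripts were captured through an NAD cap more or less efficiently, relative to their own abundance, in the xrn1-H41A strain than in WT. The measure was an interaction. For each transcript, the log2 ratio of NADcapPro to RNA-seq reads was taken in xrn1-H41A, and the same ratio in WT was subtracted from it, so that a positive value stands for a higher enrichment in xrn1-H41A. It was drawn from 12 of the 20 libraries of the series, 3 in each of 4 groups: xrn1-H41A NADcapPro, xrn1-H41A RNA-seq, WT NADcapPro and WT RNA-seq. Both strains of Saccharomyces cerevisiae were of the BY4741 background, a MATa laboratory strain with his3, leu2, met15 and ura3 deletions, were grown in YPD and were harvested in exponential phase with no drug or other treatment. In xrn1-H41A the histidine at codon 41 of Xrn1 is replaced by alanine, an allele described as lacking deNADding activity while keeping the exonuclease. The sources used here do not say whether the strain came from more than 1 clone.

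An NAD cap is nicotinamide adenine dinucleotide at the 5′ end of an RNA, in the place of the usual methylguanosine cap, and RNA polymerase can build it in by starting a transcript with NAD in place of ATP. DeNADding enzymes remove it, and Xrn1, the main cytoplasmic 5′-3′ exonuclease of yeast, is one of them. In NADcapPro, Dcs1 first removes methylguanosine caps, ADP-ribosyl cyclase then exchanges nicotinamide for an azide, and the azide is joined to biotin without copper so that the RNA can be held on streptavidin beads. The input of the capture was poly(A)-selected RNA by the methods, whereas the labels give total RNA as the molecule of each library and mention poly(A) selection without saying where it was used. The interaction is a ratio of 2 ratios and gives no absolute amount of capped RNA. A higher NAD-capped share cannot be told apart from any other strain difference in capture. The altered codon is shown because the mutant strain is named for it. How that strain was built, and whether it differs from WT elsewhere, is not given in the sources used here. The reference coding strand of XRN1 around codon 41 (R64, chrVII:179979-180005, minus strand), with the codon in capitals, reads

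XRN1 codon 41: aattcgattttaCATaattgtacgcat

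The 12 libraries held 13038320 to 30206709 estimated counts, and 3 counts corresponded to 0.0929 to 0.268 CPM (counts per 1000000 counts, scaled by TMM, a trimmed mean of ratios between libraries). The 10 most abundant transcripts took 6.49% to 6.68% of xrn1-H41A NADcapPro counts, 9.36% to 9.85% of xrn1-H41A RNA-seq counts, 8.21% to 8.59% of WT NADcapPro counts and 12.4% to 12.5% of WT RNA-seq counts. Of the marker genes of the background, MET17 had 0 counts in all 12 libraries and LEU2 and URA3 had at most 4, while HIS3 was read in both strains. The MATa genes STE2 and MFA1 were expressed in all 12, at lower levels in xrn1-H41A. In RNA-seq, MFA1 was at 42.4 to 50.6 CPM of library totals in xrn1-H41A and 138 to 163 in WT. STE2 was at 394 to 412 in xrn1-H41A RNA-seq and 569 to 606 in WT RNA-seq. The α-cell gene STE3 was at 0.539 to 2.17 CPM of library totals in xrn1-H41A and 5.96 to 8.13 in WT. The part of these differences between the strains in the results was not tested.

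Of 6059 transcripts tested, 254 (4.19%) had a higher and 178 (2.94%) a lower NADcapPro enrichment in xrn1-H41A than in WT (edgeR quasi-likelihood test of the interaction, at least 2-fold, p adjusted by Benjamini-Hochberg not above 0.01). Such transcripts are referred to as called. Without a limit on size, 2043 (33.7%) were higher and 1832 (30.2%) lower, and the median over all tested transcripts was 0.05 on the log2 scale. The split depended on the scaling: with library totals alone the counts were 340 higher and 127 lower, with no filter on low counts 197 and 238, and without replicate 1 of WT NADcapPro 200 and 241. Among the 254 the median enrichment was 0.94 in xrn1-H41A and -0.51 in WT, and among the 178 it was -0.65 in xrn1-H41A and 0.69 in WT. Because these transcripts were selected by the difference between these 4 groups, the medians only describe it. An interaction can come from either library type. The NADcapPro libraries differed more between strains than the RNA-seq libraries for 181 of the 254 and 116 of the 178, and the RNA-seq libraries differed more for the other 73 and 62.

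**Figure D1:**
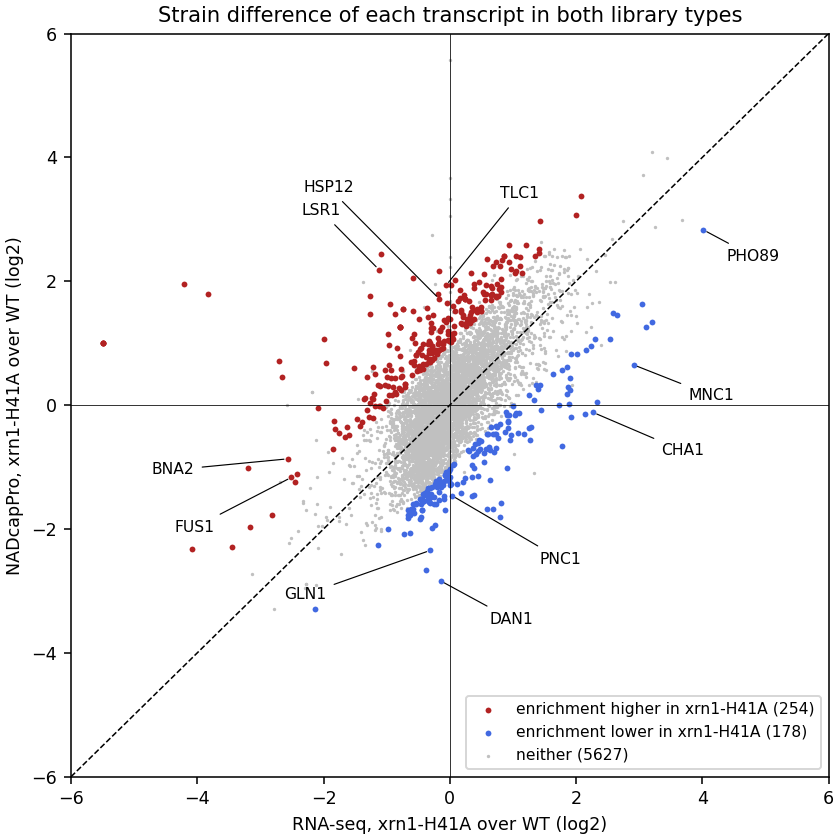
Log2 difference between xrn1-H41A and WT in RNA-seq (x axis) and in NADcapPro (y axis) for each tested transcript, as fitted by edgeR; 11 transcripts, none of them called, lie outside the range of 6 shown. On the dashed line the difference was equal in both library types. DAN1, GLN1 and PNC1 lie below it with RNA-seq differences near 0, while CHA1 and MNC1 lie to its right with NADcapPro differences of -0.12 and 0.65.

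Genes that make NAD were called in both directions. Of 26 tested genes of NAD synthesis and salvage, 5 had a higher enrichment in xrn1-H41A (BNA2, NRT1, BNA5, BNA4 and TNA1) and 2 a lower one (PNC1 and NPT1), beside 4.19% and 2.94% of all transcripts, with a median interaction of 0.20, against 0.05 over all tested transcripts. BNA4, BNA5 and TNA1 were named after their values were seen. BNA2 encodes the dioxygenase that opens tryptophan at the start of the de novo pathway. Its level was 6.86, 7.49 and 6.65 CPM in xrn1-H41A NADcapPro and 6.69, 7.22 and 7.07 in xrn1-H41A RNA-seq, against 13.8, 12.9 and 11.6 in WT NADcapPro and 43.7, 37.4 and 43.3 in WT RNA-seq. The WT RNA-seq libraries thus stood above all others, and the interaction of 1.70 ± 0.14 (SE, adjusted p = 3.52e-09, edgeR) came with a strain difference of -2.57 in RNA-seq and -0.87 in NADcapPro. BNA2 overlaps YJR079W, and library strand was not kept, so their reads cannot be fully told apart.

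BNA4 and BNA5, later enzymes of the kynurenine route, were also lower in xrn1-H41A in both library types, and more so in RNA-seq. BNA4 had 23.8, 25.1 and 23.0 CPM in xrn1-H41A NADcapPro and 22.2, 21.9 and 23.6 in xrn1-H41A RNA-seq, against 94.5, 98.9 and 86.9 in WT NADcapPro and 188, 212 and 204 in WT RNA-seq (interaction 1.21 ± 0.08, adjusted p = 3.93e-10, edgeR). BNA5 differed by -2.41 in RNA-seq and by -1.11 in NADcapPro (interaction 1.31 ± 0.06). TNA1, the nicotinic acid transporter, had 166, 164 and 169 CPM in xrn1-H41A NADcapPro and 191, 185 and 193 in WT NADcapPro, but 188, 194 and 198 in xrn1-H41A RNA-seq and 466, 474 and 464 in WT RNA-seq (interaction 1.09 ± 0.05). Its NADcapPro levels therefore differed little where RNA-seq differed by -1.28. NRT1, the nicotinamide riboside transporter, was the exception among the 5: its NADcapPro level was higher in xrn1-H41A, 74.3, 68.3 and 74.9 CPM against 40.2, 40.4 and 39.2 in WT, and its RNA-seq level lower, 68.3, 66.5 and 67.6 CPM in xrn1-H41A against 94.6, 94.1 and 96.6 in WT (interaction 1.36 ± 0.06, adjusted p = 1.54e-12, edgeR).

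The 2 genes called lower belong to the salvage of nicotinamide and nicotinic acid. PNC1, the nicotinamidase, had 195, 186 and 182 CPM in xrn1-H41A NADcapPro against 509.6, 519 and 519 in WT NADcapPro, while RNA-seq gave 163, 190.0 and 188 CPM in xrn1-H41A and 173, 176 and 178 in WT. The NADcapPro groups did not overlap and the RNA-seq groups did, and the interaction was -1.50 ± 0.07 (adjusted p = 1.32e-12, edgeR). NPT1, nicotinate phosphoribosyltransferase, which uses the product of Pnc1, had 162, 165 and 173 CPM in xrn1-H41A NADcapPro against 398, 384 and 377 in WT NADcapPro, with RNA-seq differing by -0.07 (interaction -1.14 ± 0.06). Of 16 tested genes that remove NAD caps or decap RNA, 0 were called in either direction by edgeR or by DESeq2. By edgeR 4 were higher and 4 lower on adjusted p alone, beside 33.7% and 30.2% of all transcripts, and 4 and 7 at an unadjusted p under 0.05. Their interactions ran from -0.81 (SCD6) to 0.44 (XRN1), and their median of -0.02 turned positive with library totals alone (0.08).

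**Figure D2:**
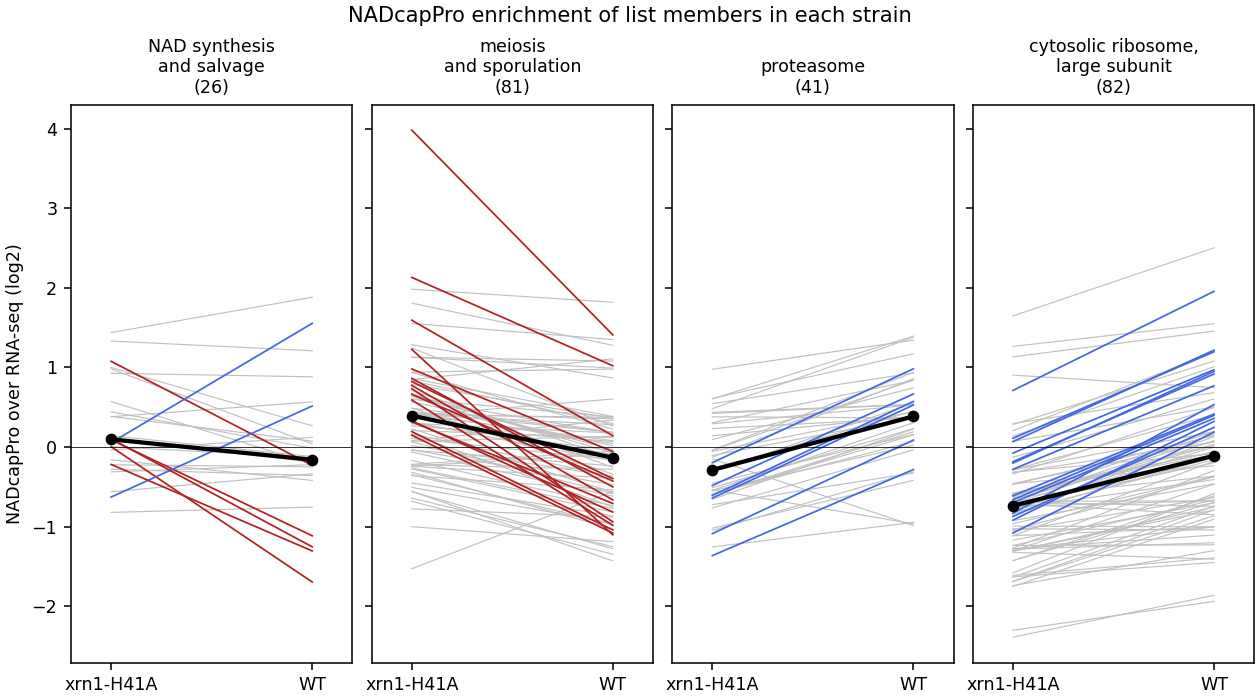
Log2 ratio of NADcapPro to RNA-seq in xrn1-H41A (left) and WT (right) for each member of 4 gene lists, with called genes in red (higher in xrn1-H41A) and blue (lower), others in grey, and the list median in black. Median enrichment of the proteasome list was -0.29 in xrn1-H41A and 0.39 in WT, and that of the meiosis list 0.39 in xrn1-H41A and -0.13 in WT.

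Noncoding RNAs were among the largest differences. The capture input was poly(A)-selected by the methods, so the reads need not come from the mature form of these RNAs. Which form was read was not tested. Of 100 tested, 19 had a higher and 3 a lower enrichment in xrn1-H41A, beside 4.19% and 2.94% of all transcripts (14 and 3 by DESeq2), and 15 of the 19 met further conditions: a count of 10 or more in each library, 31-base words (31-mers) of which 50% or more occur in no other transcript, and 1 sign in all sets of equally numbered libraries. Their median of 0.17 became -0.06 when the trend on length was removed. The 5′ ends of the leading ones are shown because an NAD cap built in by the polymerase takes the place of a first adenosine. A cap added after transcription, a route described as well, does not need one. The first 30 bases of the annotated RNAs (R64, written as DNA, first base in capitals) are

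LSR1 (chrII:681833-681862, minus strand): Acgaatctctttgccttttggcttagatca
TLC1 (chrII:307587-307616, plus strand): Aataaaactagagaggaagataggtaccct
SNR42 (chrXI:559337-559366, minus strand): Ataacaatttgtgatgctttagggagccta
SNR30 (chrXII:198784-198813, plus strand): Aaccatagtctcgtgctagttcggtactat
SNR191 (chrXIV:722182-722211, minus strand): Taccaaacctttttgtcagggtgcttctct
SNR33 (chrIII:142517-142546, minus strand): Aagcttaatgccctctttgtacgatggtgt

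Of the 19 called higher, 12 (63.2%) start with A in the annotation, as do 39 of the 100 tested (39.0%) and 1 of the 3 called lower. The annotated end need not be the end of the primary transcript, since small nucleolar RNAs can be trimmed at the 5′ end, and this share carries no test. SNR191 starts with T.

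LSR1, the U2 RNA of the spliceosome, showed the largest called difference among transcripts that met these conditions. It had 43.4, 42.7 and 44.9 CPM in xrn1-H41A NADcapPro and 10.4, 6.86 and 6.47 in xrn1-H41A RNA-seq, against 9.30, 10.3 and 9.16 in WT NADcapPro and 19.5, 16.2 and 17.8 in WT RNA-seq. It was thus enriched by NADcapPro in xrn1-H41A and depleted in WT, with an interaction of 3.31 ± 0.17 (adjusted p = 7.74e-12, edgeR). TLC1, the RNA template of telomerase (II, 307587 to 308887), was read far more deeply. It had 1176, 1206 and 1144 CPM in xrn1-H41A NADcapPro against 312, 313 and 298 in WT NADcapPro, while its RNA-seq level was 189, 186 and 186 CPM in xrn1-H41A and 199, 194 and 193 in WT. Its RNA-seq libraries differed by only -0.06 between strains, and its interaction was 1.99 ± 0.04 (adjusted p = 4.23e-16, edgeR).

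Small nucleolar RNAs of the H/ACA class, most of which guide pseudouridylation, followed. SNR30, needed for processing of the small-subunit ribosomal RNA, had 223, 222 and 209 CPM in xrn1-H41A NADcapPro against 76.0, 81.8 and 80.0 in WT NADcapPro, and 34.0, 30.1 and 32.0 CPM in xrn1-H41A RNA-seq against 41.5, 37.6 and 37.0 in WT RNA-seq (interaction 1.72 ± 0.07). SNR42 had 19.0, 17.0 and 16.2 CPM in xrn1-H41A NADcapPro against 5.18, 5.64 and 6.79 in WT NADcapPro, with RNA-seq differing by -0.36 (interaction 1.93 ± 0.17). In all 4 of these RNAs the NADcapPro groups of the strains stood apart. They were named for an interaction that includes these values, so this only describes them. The share of all transcripts with such groups is not given here. SNR30 was named after its values were seen. Of the 3 noncoding RNAs called lower, SNR57, which guides a ribose methylation, was the only one to meet the conditions above, at 1.90, 1.46 and 1.86 CPM in xrn1-H41A NADcapPro and 3.84, 4.94 and 3.84 in WT NADcapPro (interaction -1.39 ± 0.32, adjusted p = 0.000791, edgeR).

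Among protein-coding transcripts with a higher enrichment in xrn1-H41A, many were rare. YMR244W, an uncharacterized gene, had 16.5, 17.8 and 15.3 CPM in xrn1-H41A NADcapPro and 0.805, 1.39 and 1.12 in xrn1-H41A RNA-seq, against 8.61, 7.42 and 7.51 in WT NADcapPro and 3.75, 4.38 and 4.79 in WT RNA-seq (interaction 3.07 ± 0.23). HXT10, a hexose transporter repressed by glucose, had 4.35, 6.23 and 4.80 CPM in xrn1-H41A NADcapPro against 1.59, 1.52 and 1.44 in WT NADcapPro, and its RNA-seq levels did not exceed 0.875 CPM in xrn1-H41A and 2.07 in WT (interaction 3.02 ± 0.41). Its lowest library held 11 counts. The uncharacterized YLR236C, YOR394C-A, YHR214C-D, YER053C-A and YOR387C and the gene DCV1 completed the leading group, with interactions of 1.76 to 2.34. Of the 254 called higher, 65 (25.6%) are annotated as uncharacterized proteins, as are 14 of the 178 called lower (7.87%) and 543 of all tested (8.96%).

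Transcripts of higher level were called as well. HSP12, a small membrane-organizing stress protein, was depleted by NADcapPro in both strains but less in xrn1-H41A. It had 33.1, 32.4 and 31.7 CPM in xrn1-H41A NADcapPro against 10.3, 10.2 and 9.02 in WT NADcapPro, and 75.8, 81.5 and 81.4 CPM in xrn1-H41A RNA-seq against 89.3, 85.8 and 92.5 in WT RNA-seq (interaction 1.88 ± 0.08, adjusted p = 6.66e-13, edgeR). CYT1, cytochrome c1 of the respiratory chain, had 173, 172 and 182 CPM in xrn1-H41A NADcapPro and 60.0, 59.0 and 64.1 in WT NADcapPro. Its RNA-seq level differed by 0.08, so that NADcapPro enriched it in xrn1-H41A (0.52) and depleted it in WT (-0.93). ARO10, the phenylpyruvate decarboxylase of amino acid breakdown, and ADA2, a coactivator in histone acetyltransferase complexes, also had a higher enrichment (1.11 ± 0.06 and 1.04 ± 0.07), with NADcapPro differing by 1.17 and 1.53 between strains and RNA-seq by 0.06 and 0.49. The ADA2 call was lost under 3 of 22 alternative settings. Here and below, the 22 leave out the stricter test against a 2-fold change (glmTreat). Of 67 called transcripts named by the rule given below, that test kept 38.

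Genes of meiosis and sporulation, programs that haploid cells in exponential growth do not run, were called mostly higher. Of 81 tested, 15 had a higher enrichment in xrn1-H41A and 0 a lower one by edgeR (14 and 0 by DESeq2, and 3 lower at an unadjusted p under 0.05), beside 4.19% and 2.94% of all transcripts. With no filter on low counts 1 was called lower. Without a limit on size 43 were higher and 2 lower, beside 33.7% and 30.2% of all transcripts. With 8 below 0 and 73 above, the median was 0.49, and it was between 0.41 and 0.59 under the other scalings. The list's median difference between strains was 0.79 in NADcapPro and 0.25 in RNA-seq. Among all transcripts of at most 22.7 CPM in WT RNA-seq, 11.5% were called higher and 3.55% lower, with a median of 0.30. The list was not compared with transcripts of like level. Levels were low throughout: SPR3, a sporulation septin, had 4.60, 4.90 and 5.26 CPM in xrn1-H41A NADcapPro against 1.97, 2.56 and 2.48 in WT NADcapPro, and ECM11, of the synaptonemal complex, had 1.55, 1.43 and 1.67 CPM against 0.726, 0.965 and 1.01. Unlike the list's median, the RNA-seq levels of these 2 were lower in xrn1-H41A, at 2.31, 3.67 and 2.91 CPM in xrn1-H41A and 4.02, 4.38 and 4.83 in WT for SPR3, and 1.02, 1.10 and 0.925 CPM in xrn1-H41A and 2.14, 1.68 and 1.66 in WT for ECM11. The interactions were 1.67 ± 0.25 and 1.57 ± 0.31.

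Of 49 tested genes of mating and the pheromone response, 7 were called higher and 0 lower by edgeR and by DESeq2, beside 4.19% and 2.94% of all transcripts. Without a limit on size 29 were higher and 9 lower, beside 33.7% and 30.2% of all transcripts (10 lower at an unadjusted p under 0.05). Their median was 0.39. FUS1, a membrane protein of cell fusion, had 15.7, 15.8 and 17.7 CPM in xrn1-H41A NADcapPro and 6.20, 7.22 and 6.21 in xrn1-H41A RNA-seq, against 36.4, 38.7 and 35.5 in WT NADcapPro and 38.5, 38.0 and 36.4 in WT RNA-seq. FUS1 was thus lower in both library types in xrn1-H41A, by -1.17 in NADcapPro and -2.51 in RNA-seq (interaction 1.34 ± 0.11, adjusted p = 3.83e-09, edgeR). FUS2, which aligns nuclei before they fuse, differed by -0.22 in NADcapPro and -1.47 in RNA-seq (interaction 1.25 ± 0.18). For both, the higher enrichment accompanied a lower transcript level.

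**Figure D3:**
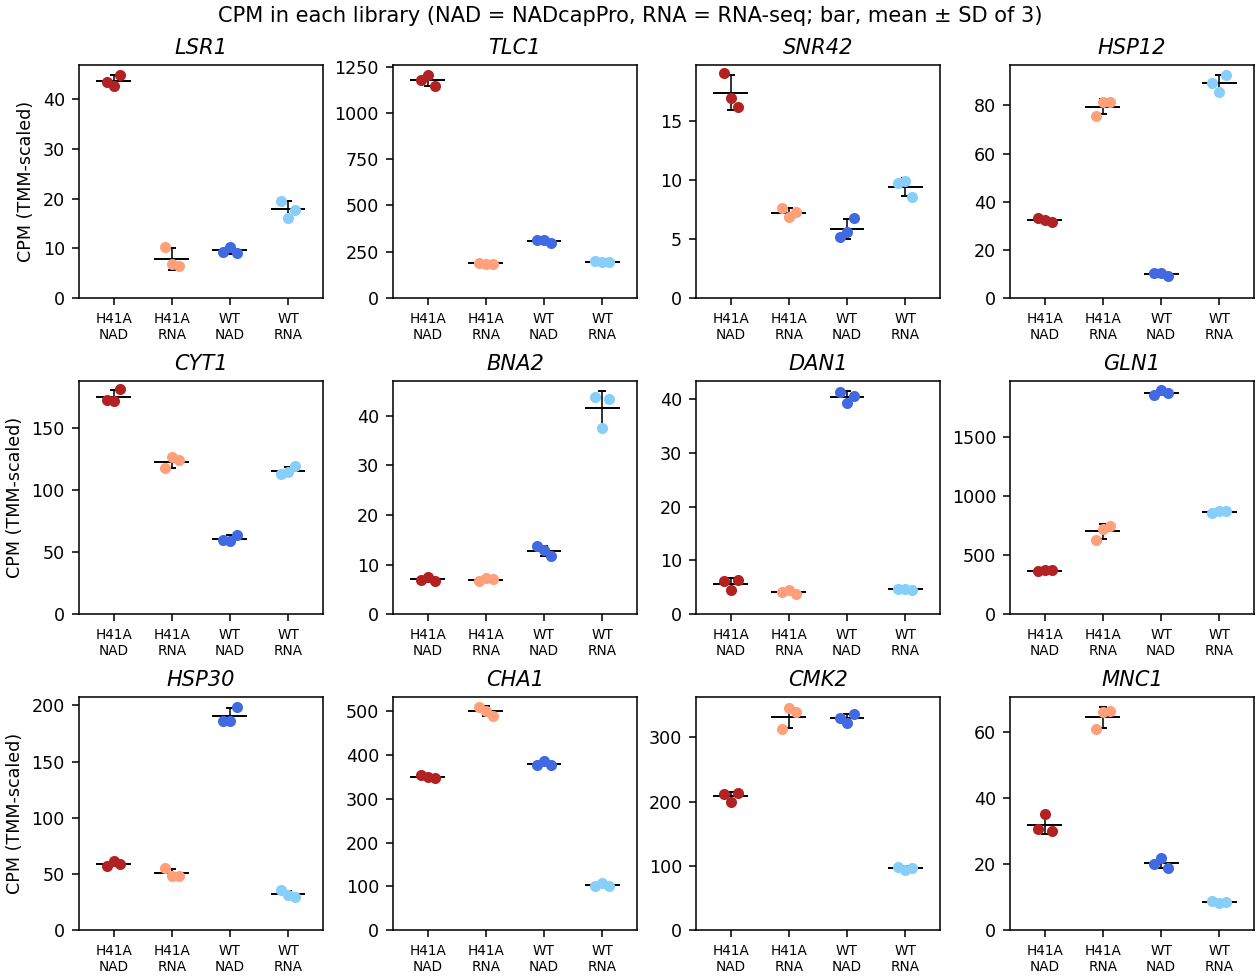
CPM of 12 transcripts in each library (points), with the mean and SD of 3 libraries; within each panel xrn1-H41A NADcapPro, xrn1-H41A RNA-seq, WT NADcapPro and WT RNA-seq run from left to right. TLC1, HSP12, DAN1 and GLN1 differ between strains mainly in NADcapPro, BNA2 and CHA1 mainly in RNA-seq.

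The transcripts with the largest lower enrichment in xrn1-H41A also differed in 1 or both library types. For some, the NADcapPro difference was far larger than the RNA-seq difference. DAN1, a cell wall mannoprotein of anaerobic growth, had 6.22, 4.44 and 6.28 CPM in xrn1-H41A NADcapPro against 41.3, 39.3 and 40.6 in WT NADcapPro, while RNA-seq gave 4.10, 4.55 and 3.83 CPM in xrn1-H41A and 4.73, 4.76 and 4.47 in WT. A WT enrichment of 3.12 thus stood against 0.42 in xrn1-H41A, and the interaction was -2.70 ± 0.18 (adjusted p = 2.69e-10, edgeR). GLN1, glutamine synthetase, showed it at high abundance, with 364, 374 and 372 CPM in xrn1-H41A NADcapPro against 1862, 1898 and 1875 in WT NADcapPro, and 634, 726 and 748 CPM in xrn1-H41A RNA-seq against 857, 879 and 874 in WT RNA-seq. Its RNA-seq groups did not overlap either, with a difference of -0.31 beside -2.35 in NADcapPro (interaction -2.04 ± 0.06, adjusted p = 2.14e-14, edgeR). LSO1, a small protein of the response to iron deprivation, had 1.37, 1.10 and 1.55 CPM in xrn1-H41A NADcapPro against 8.47, 8.50 and 8.66 in WT NADcapPro, with RNA-seq differing by -0.38 (interaction -2.29 ± 0.24).

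For others, RNA-seq was higher in xrn1-H41A. CHA1, the deaminase that breaks down serine and threonine, had 354, 349 and 348 CPM in xrn1-H41A NADcapPro against 378, 385 and 378 in WT NADcapPro, but 510.2, 501 and 489 CPM in xrn1-H41A RNA-seq against 102, 108 and 101 in WT RNA-seq (interaction -2.39 ± 0.05, adjusted p = 9.23e-17, edgeR). MUP3, a methionine permease, had 72.7, 79.7 and 77.7 CPM in xrn1-H41A NADcapPro against 86.7, 88.3 and 80.0 in WT NADcapPro, and 40.7, 48.6 and 49.1 CPM in xrn1-H41A RNA-seq against 9.19, 10.3 and 11.1 in WT RNA-seq (interaction -2.29 ± 0.11). RCR1, an adaptor for ubiquitin ligases at the plasma membrane, differed by -0.19 in NADcapPro and 1.92 in RNA-seq, and the uncharacterized YPR145C-A by 0.05 and 2.33. CMK2, a calmodulin-dependent kinase, had 212, 199 and 213 CPM in xrn1-H41A NADcapPro against 331, 323 and 337 in WT NADcapPro, and 312, 345 and 339 CPM in xrn1-H41A RNA-seq against 99.1, 94.0 and 97.2 in WT RNA-seq, so that both library types contributed (interaction -2.44 ± 0.06). HSP30, a regulator of the plasma membrane proton pump, and STP4, a predicted zinc-finger factor, also differed in both, by -1.68 and -1.01 in NADcapPro and by 0.68 and 0.91 in RNA-seq. MNC1, a small membrane protein, was higher in both, by 0.65 in NADcapPro and 2.91 in RNA-seq (interaction -2.27 ± 0.11). EGO4, an uncharacterized gene, differed more in NADcapPro, by -1.67, than in RNA-seq, by 0.59 (interaction -2.26 ± 0.13).

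Proteasome subunits had a lower enrichment in xrn1-H41A almost throughout. Of 41 tested genes, 6 were called lower and 0 higher by edgeR, beside 2.94% and 4.19% of all transcripts (8 and 0 by DESeq2, and 2 higher at an unadjusted p under 0.05). Without a limit on size 35 were lower and 2 higher (beside 30.2% and 33.7% of all transcripts), with a median of -0.66. The median RNA-seq difference between strains was -0.06 and the median NADcapPro difference -0.71. PRE5, a subunit of the core ring, had 232, 229 and 229.7 CPM in xrn1-H41A NADcapPro against 573, 581 and 569 in WT NADcapPro, and 255, 272 and 264 CPM in xrn1-H41A RNA-seq against 289, 289 and 293 in WT RNA-seq. NADcapPro thus enriched PRE5 in WT (0.98) and not in xrn1-H41A (-0.20), with an interaction of -1.18 ± 0.04 (adjusted p = 1.38e-13, edgeR). The sign of that -0.20 can depend on the scaling of the libraries. RPN8, of the regulatory lid, had 245, 256 and 231 CPM in xrn1-H41A NADcapPro against 399.9, 415 and 380.1 in WT NADcapPro, and 378, 368 and 369 CPM in xrn1-H41A RNA-seq against 269, 272 and 262 in WT RNA-seq (interaction -1.18 ± 0.06). The other 4 called were RPN11, RPN12, PRE1 and RPT5, at -1.17 to -1.08, named after their values were seen. At the upper end stood BLM10 (0.84) and ECM29 (0.42), which bind proteasomes and are not subunits of the core or the base. Both were named after their values were seen. Whether their values have to do with this or with gene length was not tested.

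Cytosolic ribosomal protein genes moved the same way. For the large subunit 14 of 82 tested were called lower and 0 higher by edgeR (17 and 0 by DESeq2), beside 2.94% and 4.19% of all transcripts, with 70 lower and 0 higher at any size and a median of -0.63, and for the small subunit 5 of 57 were called lower and 0 higher by either tool, with 50 lower and 2 higher at any size and a median of -0.59. Over all transcripts, 30.2% were lower and 33.7% higher at any size. At an unadjusted p under 0.05, 2 of each list were higher. The called counts depended on the scaling: the 14 became 8 with library totals alone and 9 with the length trend removed, and the 5 became 2 with library totals alone or with the trend on GC content removed. Both medians stayed between -0.72 and -0.49 under the other scalings. Here RNA-seq was lower in xrn1-H41A as well, by medians of -0.36 and -0.41, while the median difference in NADcapPro was -1.01 for the small subunit and nearly the same for the large. RPL27A had 603, 607 and 614 CPM in xrn1-H41A NADcapPro against 1821, 1841 and 1799 in WT NADcapPro, and 1255, 1325 and 1275 CPM in xrn1-H41A RNA-seq against 1546, 1637 and 1606 in WT RNA-seq (interaction -1.27 ± 0.04, adjusted p = 3.45e-14, edgeR). RPL23B (-1.36 ± 0.06), RPS19A (-1.06 ± 0.05) and RPS25B (-1.05 ± 0.04) were the other leading members. Many ribosomal protein genes have a near-identical paralog: 14 of the 82 and 8 of the 57 have fewer than 50% of 31-mers of their own, and the medians without these were -0.61 and -0.56. By contrast with the cytosolic set, 0 of 78 mitochondrial ribosomal protein genes were called in either direction by edgeR or DESeq2 (11 higher and 40 lower at any size, and 15 and 47 at an unadjusted p under 0.05), with a median of -0.22.

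**Figure D4:**
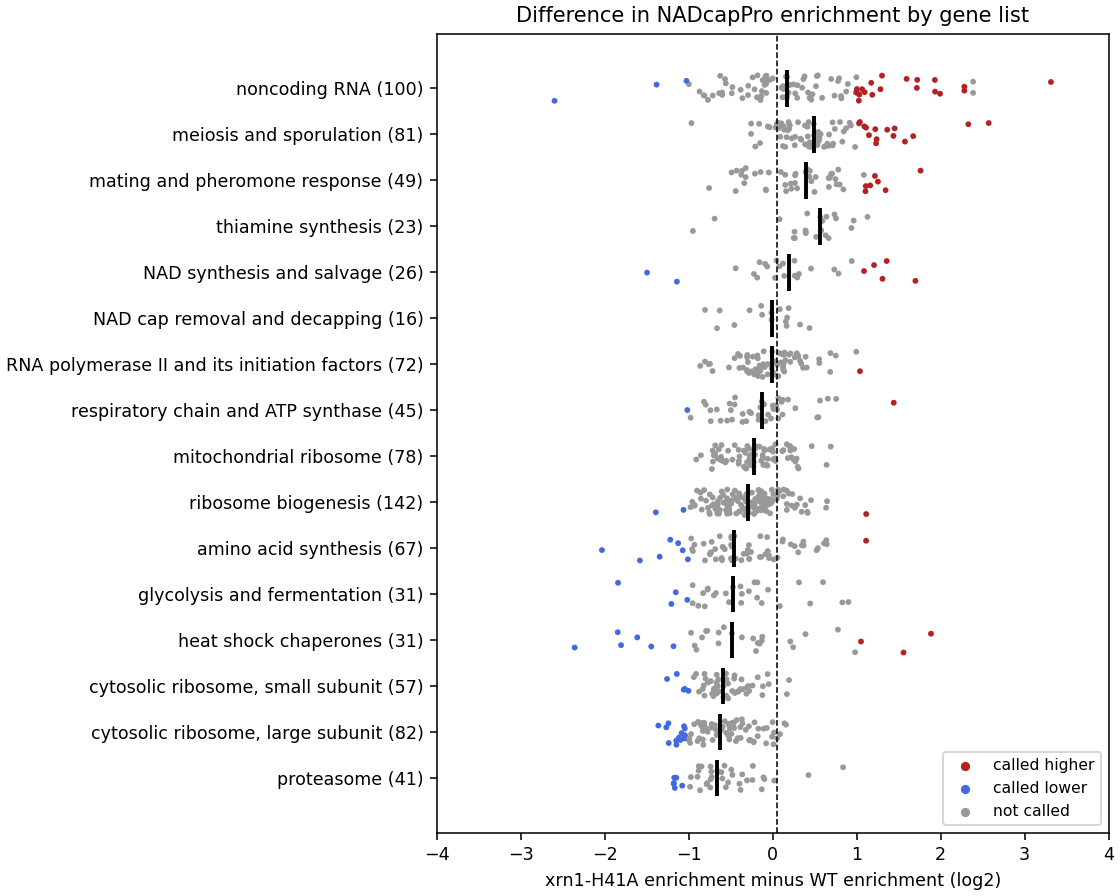
Difference in enrichment, xrn1-H41A minus WT on the log2 scale, of each tested member of 16 gene lists (points, red and blue where called), with the list median (black bar) and the median of all tested transcripts (dashed, 0.05); 4 members lie outside the range of 4 shown. Medians run from 0.57 for thiamine synthesis to -0.66 for the proteasome.

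Among metabolic genes, most calls were lower. Called shares here stand beside 2.94% lower and 4.19% higher over all transcripts. Shares at any size stand beside 30.2% lower and 33.7% higher. For amino acid synthesis 7 of 67 tested were called lower (11 with no filter on low counts) and 1 higher, with 43 lower and 11 higher at any size and a median of -0.46. The lower ones included GLN1 and LEU1, isopropylmalate isomerase of leucine synthesis, which had 146, 151 and 150.0 CPM in xrn1-H41A NADcapPro against 336, 329 and 320.0 in WT NADcapPro, and 427, 438 and 434 CPM in xrn1-H41A RNA-seq against 313, 324 and 319 in WT RNA-seq (interaction -1.58 ± 0.04). The higher one, ARO10, acts in breakdown and not in synthesis. Of 31 genes of glycolysis and fermentation, 23 were lower and 4 higher at any size (5 higher at an unadjusted p under 0.05), with a median of -0.48. By either tool 4 were called lower and 0 higher. Both leading ones make glycerol: GPD1, glycerol-3-phosphate dehydrogenase, had 62.4, 61.6 and 62.4 CPM in xrn1-H41A NADcapPro against 169, 169 and 175 in WT NADcapPro (interaction -1.84 ± 0.07), and GPP1, the phosphatase of the next step, 299, 294 and 295 CPM against 828, 874 and 879 (-1.21 ± 0.04). For sulfate assimilation and methionine, 6 of 33 were called lower and 2 higher. The lower set included SAM1, S-adenosylmethionine synthetase (-1.38 ± 0.05), and the higher ones were MET32, a transcription factor of the pathway (1.12 ± 0.11), and MET8, of siroheme synthesis (1.01 ± 0.18), whose call was lost under 13 of 22 alternative settings.

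Stress and storage genes were called in both directions. Of 31 chaperone and heat shock genes, 6 were called lower and 3 higher, beside 2.94% and 4.19% of all transcripts. Without a limit on size 22 were lower and 7 higher (beside 30.2% and 33.7% of all transcripts), with a median of -0.49. HSP104, the disaggregase, had 229.8, 215 and 228 CPM in xrn1-H41A NADcapPro against 536, 511 and 502 in WT NADcapPro, and 486, 536 and 547 CPM in xrn1-H41A RNA-seq against 338, 338 and 328 in WT RNA-seq (interaction -1.85 ± 0.06). HSP26, a small chaperone, had the opposite sign: it was lower in both library types in xrn1-H41A, by -1.77 in NADcapPro and -2.82 in RNA-seq (interaction 1.05 ± 0.10, a call lost under 5 of 22 settings). Of 20 genes of trehalose and glycogen, 3 were called lower and 1 higher. The paralogous glycogenins, which start glycogen chains, were on opposite sides. GLG1 had 66.3, 74.1 and 73.9 CPM in xrn1-H41A NADcapPro against 94.0, 91.5 and 91.4 in WT NADcapPro, and 58.1, 57.6 and 57.1 CPM in xrn1-H41A RNA-seq against 31.8, 28.9 and 30.6 in WT RNA-seq (interaction -1.30 ± 0.07). GLG2 had 32.2, 34.0 and 35.8 CPM in xrn1-H41A NADcapPro against 28.8, 30.0 and 32.7 in WT NADcapPro, and 13.9, 14.9 and 14.5 CPM in xrn1-H41A RNA-seq against 26.1, 28.2 and 29.5 in WT RNA-seq (interaction 1.13 ± 0.10). In both, the RNA-seq difference was the larger of the 2. GSY1, a glycogen synthase, differed by -1.29 in NADcapPro at a level RNA-seq signal.

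A pair of phosphate transporters were higher in xrn1-H41A in both library types, and more so in RNA-seq. PHO84, the high-affinity phosphate transporter, had 131, 137 and 139.6 CPM in xrn1-H41A NADcapPro and 394, 375 and 374 in xrn1-H41A RNA-seq, against 54.6, 54.4 and 51.3 in WT NADcapPro and 50.8, 38.8 and 38.0 in WT RNA-seq (interaction -1.85 ± 0.09). PHO89, the sodium-coupled phosphate transporter, differed by 2.83 in NADcapPro and 4.02 in RNA-seq (interaction -1.19 ± 0.19). They were among 4 of 27 genes of the phosphate regulon called lower, with 0 called higher by either tool. At any size 13 of the 27 were lower and 7 higher (9 higher at an unadjusted p under 0.05), beside 30.2% and 33.7% of all transcripts. For this list and those that follow, 2.94% of all transcripts were called lower and 4.19% higher. Called shares of 2 of 142 and 1 of 45 lie below that lower share and 1 of 27 near it. Their counts at any size, given with each list, stand beside 30.2% lower and 33.7% higher. Of 32 genes of the iron regulon, 2 were called lower, FIT2 (-1.30 ± 0.06) and ARN2 (-1.09 ± 0.06), which retain or take up siderophore iron, and 0 higher by either tool. At any size 15 of the 32 were lower and 4 higher (6 higher at an unadjusted p under 0.05). In sterol synthesis 2 of 26 were called lower, ERG9, squalene synthase (-1.32 ± 0.05), and ERG28 (-1.03 ± 0.08). At any size 16 of the 26 were lower and 4 higher. Of 27 genes of purine synthesis, ADE12 was called lower (-1.13 ± 0.04) and ADE4, the first enzyme, higher (1.01 ± 0.05). The ADE4 call was lost under 8 of 22 settings. At any size 15 of the 27 were lower and 5 higher. In the respiratory chain and ATP synthase list 45 were tested. CYT1 was called higher and STF2, a factor linked to the ATP synthase, lower (-1.02 ± 0.08, lost under 6 of 22). Without a limit on size 16 of the 45 were lower and 7 higher. Of 11 histone genes HHT1 was called lower (-1.11 ± 0.05), and 6 were lower and 1 higher at any size. Ribosome biogenesis had 2 of 142 called lower, FYV7 (-1.39 ± 0.07) and FCF2 (-1.06 ± 0.05), and 1 higher, REA1, the midasin ATPase (1.11 ± 0.05). Without a limit on size 87 of the 142 were lower and 15 higher, with a median of -0.29. The coding length of REA1 is 14733 bases, and its interaction was 0.01 once the trend on length was removed.

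Other lists held few or no calls by this test. Over all transcripts, 33.7% were higher and 30.2% lower at any size. Thiamine synthesis had 0 of 23 called in either direction by edgeR and 1 higher by DESeq2, but edgeR called 3 higher with library totals alone, 2 with the length trend removed, and up to 2 without a single library (2 without replicate 1 or replicate 3 of WT RNA-seq). It had 16 higher and 2 lower at any size (18 and 2 at an unadjusted p under 0.05) and a median of 0.57, though 8 of the 23 have fewer than 50% of 31-mers of their own. Mitochondrial protein import had 0 of 32 called in either direction by either tool (3 higher and 13 lower at any size, and 5 and 14 at an unadjusted p under 0.05). Of 72 genes of RNA polymerase II and its initiation factors, ADA2 alone was called, and their median of -0.01 became 0.09 with library totals alone. Of 19 hexose transport genes 1 was called in each direction, HXT10 higher and HXT6 lower, and HXT6 shares most of its sequence with a paralog. Of 45 subtelomeric genes 2 were called higher and 4 lower, among them DAN1 and PAU5 (-1.20 ± 0.23). Retrotransposon transcripts could not be assessed. Of 89, 40 were at or under 3 counts in all 6 RNA-seq libraries, 55 had no 31-mer of their own and 0 reached 50%, so the 3 calls in the higher and the 1 in the lower direction among 85 tested are not interpreted and no fold is given for them.

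The 4 nuclear genes whose NAD-capped 5′ ends the study mapped singly by circularization were not called, and each differed by less than 2-fold. RPL21B, a large-subunit ribosomal protein, had 2513, 2542 and 2499.8 CPM in xrn1-H41A NADcapPro and 779, 835 and 798 in xrn1-H41A RNA-seq, against 6279.8, 6439 and 6163 in WT NADcapPro and 1083, 1111 and 1137 in WT RNA-seq. It was enriched in both strains, by 1.65 in xrn1-H41A and 2.50 in WT, with an interaction of -0.85 ± 0.04 (adjusted p = 5.56e-12, edgeR). IMD4, inosine monophosphate dehydrogenase, was enriched by 1.38 in xrn1-H41A and 0.66 in WT (interaction 0.73 ± 0.04). SGF11, a subunit of the SAGA complex, was enriched by 2.49 in xrn1-H41A and 2.18 in WT (0.31 ± 0.07), at 277, 295 and 297 CPM in xrn1-H41A NADcapPro against 129, 131 and 125 in WT NADcapPro and 51.7, 54.5 and 48.0 CPM in xrn1-H41A RNA-seq against 26.5, 29.7 and 28.1 in WT RNA-seq. Both its library types were thus higher in xrn1-H41A by a like amount. ENB1, the enterobactin transporter, showed the smallest difference, -0.19 ± 0.05, with enrichments of 0.18 in xrn1-H41A and 0.37 in WT. XRN1 itself had 348, 339 and 345 CPM in xrn1-H41A RNA-seq against 558, 547 and 545 in WT RNA-seq, and an interaction of 0.44 ± 0.04. Its coding length is 4587 bases, and with the trend on length removed its interaction was -0.07. A changed codon does not by itself remove reads of the gene, so the XRN1 level does not check the labels. The source of its RNA-seq difference of -0.68 between strains was not tested.

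Length and level accompanied the calls. Of 1212 transcripts in the lowest of 5 bins of WT RNA-seq level, up to 22.7 CPM, 139 (11.5%) were called higher and 43 (3.55%) lower, and in the highest bin, above 174 CPM, 26 (2.15%) higher and 69 (5.69%) lower. WT RNA-seq enters the interaction with a positive sign, so this split is not independent of it. Of 906 transcripts longer than 2400 bases, 49 (5.41%) were higher and 6 (0.66%) lower, with a median interaction of 0.36, and of 384 of at most 300 bases, 44 (11.5%) were higher and 17 (4.43%) lower. Of the 254 called higher, 25 had fewer than 10 counts in at least 1 library and 43 had fewer than 50% of 31-mers of their own, against 6 and 12 of the 178 called lower. The part of length and level in the differences above was not tested beyond the removal of the length trend, under which 199 of the 254 and 151 of the 178 remained called.

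**Figure D5:**
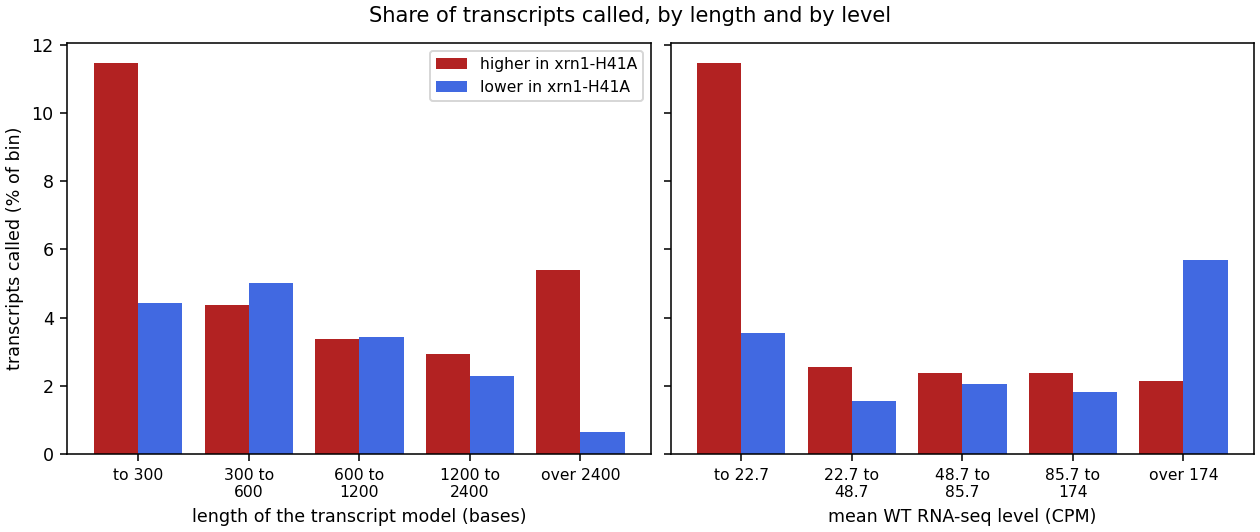
Share of tested transcripts called higher (red) or lower (blue) in xrn1-H41A, in percent of each bin, by length of the transcript model (left) and by 5 bins of mean WT RNA-seq level (right). Higher calls were most frequent up to 300 bases and in the lowest level bin (11.5% each), and lower calls in the highest level bin (5.69%).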

How the data were processed

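RNA came from 3 independent biological replicates of each strain, and libraries were made with SMART-Seq HT and Nextera XT, which do not keep strand. Per the labels and methods, the authors trimmed reads with fastp 0.23.2, removed ribosomal RNA reads, and estimated counts per RefSeq R64 transcript with kallisto 0.48.0. The deposited table holds expected counts rounded to whole numbers, with transcript lengths (an "other" column used for the length trend only). RefSeq mRNA models hold coding sequence alone. Totals ran from 13038320 to 30206709 counts, so at low levels counting error limits the precision.

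The interaction was fitted in edgeR 4.0.16 (R 4.3.3; glmQLFit and glmQLFTest, TMM, filterByExpr) over 12 libraries and 6059 transcripts, with 4 group means. A call needed a log2 value of at least 1 in size and p not above 0.01 after Benjamini-Hochberg adjustment. Differences within a strain or a library type come from the same fit and carry no call. SE is the estimate over the root of F. On simulated counts for 6044 transcripts, 99 of 100 interactions of log2 1.5 and 99 of 100 of 2.5 were called, and 0 of 5844 without change. The changed transcripts were drawn from well-counted ones alone, and the simulated spread between replicates was set by level alone. These rates therefore do not cover the rare transcripts among the calls. CPM are TMM-scaled. The share of own 31-mers counts 31-base words found in no other transcript of either strand, and kallisto's word length was not given in the sources used here. Tables were made with Python 3.11.15, pandas 2.3.3 and matplotlib 3.10.9.

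The text names the 12 largest called interactions in each direction with at least 10 counts in every library, at least 50% own 31-mers and 1 sign in the 3 equally numbered sets, the 2 largest such in each direction of every list, and RPL21B, ENB1, IMD4, SGF11 and XRN1. Other names were added after their values were seen. The members and 27 gene lists were chosen with earlier results of these data known. Of 793 list symbols, 11 matched no transcript. Libraries of the SPAAC type entered 1 alternative, and 2 libraries not tied to a strain were not used. Alternatives were other scalings, filters and tests (DESeq2 1.42.0 among them), all 18 libraries, a replicate block, length and GC trends, and each library left out.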

Additional observations from a re-analysis of the deposited data

Results flagged for a closer look

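Among the 67 called transcripts named by the rule, 24 lay on opposite sides of their RNA-seq level in the strains, with no overlap between the 3 NADcapPro and the 3 RNA-seq libraries of either strain, and each difference was tested by the interaction in edgeR. The same arrangement was found in 158 of the 432 called transcripts (36.6%) and in 698 of the 6059 tested (11.5%). The 67 were selected largely by the size of the interaction, so that the 24 only describe them. In 7 of them NADcapPro lay above RNA-seq in xrn1-H41A and below it in WT. These were LSR1 (interaction 3.31), YLR236C (2.34), SNR42 (1.93), YOR387C (1.76), SPR3 (1.67), ECM11 (1.57) and CYT1 (1.44). In the other 17 NADcapPro lay below RNA-seq in xrn1-H41A and above it in WT. They were CMK2 (-2.44), CHA1 (-2.39), LSO1 (-2.29), YPR145C-A (-2.28), MNC1 (-2.27), RCR1 (-2.11), GLN1 (-2.04), PHO84 (-1.85), HSP104 (-1.85), SAM1 (-1.38), RPL23B (-1.36), ERG9 (-1.32), RPL27A (-1.27), RPN8 (-1.18), PRE5 (-1.18), NPT1 (-1.14) and RPS19A (-1.06). GLN1 shows the size of such a difference, with enrichments of -0.93 in xrn1-H41A and 1.11 in WT. Groups of 3 libraries were not examined for single libraries that stand apart. The side on which a transcript lies also depends on the TMM scaling and was not examined with library totals alone. An enrichment near 0, such as that of PRE5 in xrn1-H41A (-0.20), can change side.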

How the results depend on the processing

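Of the 67 called transcripts named by the rule, 56 stayed called under all 22 alternatives other than the test against a 2-fold change, and 11 lost the call under at least 1 of them: ADA2, ADE4, ARN2, ERG28, FCF2, HSP26, MET8, REA1, RPS19A, RPS25B and STF2. Leaving out a library ended the call of MET8 in 7 cases (0.85 without replicate 2 of xrn1-H41A RNA-seq), of ADE4 and STF2 in 4 each, of HSP26 in 3, of ERG28 without replicate 2 of xrn1-H41A RNA-seq (-0.95) and of ADA2 without replicate 1 of WT NADcapPro (0.91). The test against a 2-fold change (glmTreat) left 64 transcripts higher and 72 lower in xrn1-H41A, and kept 38 of the 67. Leaving out each library in turn gave 200 to 256 higher and 172 to 241 lower, with the lowest higher count and the highest lower count both without replicate 1 of WT NADcapPro, where the median value shifted by -0.08. DESeq2 (Wald test) called 232 higher and 200 lower, of which 225 and 177 were also called by edgeR, and all 18 libraries in 1 fit gave 218 and 224. Among the 72 transcripts named by the rule, only the interaction of XRN1 changed sign under the alternatives run, -0.070 with the length trend removed. The replicate number did not clearly pair the libraries: same-numbered NADcapPro and RNA-seq libraries correlated at -0.09, -0.02 and 0.12 in xrn1-H41A and at 0.05, 0.03 and 0.05 in WT. In WT each NADcapPro library correlated best with its own number, though weakly. In xrn1-H41A only replicate 3 did. With the number within strain as a replicate block, 244 were higher and 177 lower. Counting error limits the rarest transcripts, and 206 of the 6059 transcripts had a library under 10 counts.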

Other observations

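The SPAAC libraries, made by the same click chemistry without the removal of methylguanosine caps and not part of the interaction above, gave a further view of the named transcripts. Strain differences in SPAAC were taken from the fit of all 18 libraries. Over the 254 transcripts called higher, the median difference between xrn1-H41A and WT was -0.23 on the log2 scale in SPAAC, -0.29 in RNA-seq and 1.09 in NADcapPro, and over the 178 called lower it was 0.24 in SPAAC, 0.33 in RNA-seq and -1.13 in NADcapPro. The RNA-seq and NADcapPro medians follow from the selection, and the SPAAC medians were not tested. CHA1 had 627, 612 and 611 CPM in xrn1-H41A SPAAC against 96.7, 95.3 and 100 in WT SPAAC, a difference of 2.66, beside 2.27 in RNA-seq and -0.12 in NADcapPro. DAN1, which differed by -2.84 in NADcapPro, differed by -0.18 ± 0.14 (SE) in SPAAC, at 5.06, 6.70 and 5.31 CPM in xrn1-H41A and 6.47, 7.06 and 5.51 in WT. TLC1, the telomerase RNA, had 56.5, 51.6 and 54.1 CPM in xrn1-H41A SPAAC and 55.1, 57.6 and 59.8 in WT SPAAC, a difference of -0.08 ± 0.04 beside 1.93 in NADcapPro. BNA2 differed by -2.53 ± 0.09 in SPAAC, -2.57 in RNA-seq and -0.87 in NADcapPro. No difference between SPAAC and the other library types was tested.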
